A study of Mus musculus with 2 samples.

Results

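The promoters described here are CpG-rich promoters of the mouse genome at which no open chromatin was listed in the aged ovary. Members were autosomal protein-coding genes of the GENCODE M21 annotation (build GRCm38, also called mm10) that met 2 criteria. The window from 500 bp before to 500 bp after the annotated 5′ end had an observed/expected CpG ratio of at least 0.6, and no peak of the longer peak list lay within 500 bp of any annotated start of the gene in either library. The ratio divides the number of CpG dinucleotides by the number that the C and G content would give. Of 9822 CpG-rich promoters 440 met the rule, which is 4.48% of them, and of all 20807 autosomal protein-coding genes 6829 lacked a peak, or 32.8%. The absence of a peak chose the members, so it is a description and was not tested. The count depends on the thresholds, with 756 members by the shorter peak lists, 169 at a minimum ratio of 0.75 and 283 with the ratio taken over 1000 bp on either side.

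Chromatin was assayed by DNase-seq, a method that sequences DNA fragments released where DNase I reaches open chromatin. The tissue was whole ovary of adult female B6CASTF1/J mice, first-generation hybrids of C57BL/6 and CAST strains, at 18 to 20 months of age, and it gave 1 group of 2 libraries, with no treated or control group. The labels number the libraries as biological replicates 1 and 2 and place both under a single donor entry, and nothing shows that they come from separate animals. The longer lists held 95898 peaks in replicate 1 and 83982 in replicate 2, and the peak signal was scaled by the authors, so that the read depth is unknown. A peak in both libraries lay at 16 of 17 promoters of granulosa cell markers, 11 of 13 of theca and stroma markers and 3 of 11 of oocyte markers, beside 63% of all autosomal genes. In bulk tissue, a promoter open in few cells and one that is little open in many cells cannot be told apart.

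CpG islands are stretches of DNA that escaped the loss of CpG through methylation and mutation, and they cover the promoters of most housekeeping genes. In most tissues such promoters are nucleosome-poor and accessible even where the gene is weakly transcribed. Known exceptions include genes of embryonic patterning, which Polycomb complexes hold silent in adult tissues, and genes of the germline, whose CpG-rich promoters are methylated in somatic cells.

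The following promoters are printed because they stand for the kinds of members described below. Each run holds 300 bases of the coding strand from the RefSeq sequence of GRCm38 and ends 50 bases into the annotated gene. In the first set, of germline genes, capitals mark each E-box CACGTG, the palindrome bound by MAX and MYC family factors. Sycp3 and Sycp1 encode parts of the synaptonemal complex that joins homologous chromosomes in meiosis, Hormad1 encodes a protein of the meiotic chromosome axis, and Tdrd1 encodes a Tudor protein of the piRNA pathway, which silences transposons.
Sycp3 (chr10:88459319-88459618, plus strand): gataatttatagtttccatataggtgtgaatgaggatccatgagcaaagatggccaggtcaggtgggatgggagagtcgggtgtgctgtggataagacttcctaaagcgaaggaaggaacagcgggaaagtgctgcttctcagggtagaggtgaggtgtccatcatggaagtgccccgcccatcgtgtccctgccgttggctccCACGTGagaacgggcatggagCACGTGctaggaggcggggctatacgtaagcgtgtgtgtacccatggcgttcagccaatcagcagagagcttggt
Hormad1 (chr3:95559427-95559726, plus strand): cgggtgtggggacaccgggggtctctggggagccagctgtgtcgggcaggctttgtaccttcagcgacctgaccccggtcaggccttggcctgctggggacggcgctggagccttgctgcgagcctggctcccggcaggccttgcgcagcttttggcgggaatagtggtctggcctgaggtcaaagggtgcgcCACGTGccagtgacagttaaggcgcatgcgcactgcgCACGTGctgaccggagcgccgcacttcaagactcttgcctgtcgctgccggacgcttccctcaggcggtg
Tdrd1 (chr19:56825959-56826258, plus strand): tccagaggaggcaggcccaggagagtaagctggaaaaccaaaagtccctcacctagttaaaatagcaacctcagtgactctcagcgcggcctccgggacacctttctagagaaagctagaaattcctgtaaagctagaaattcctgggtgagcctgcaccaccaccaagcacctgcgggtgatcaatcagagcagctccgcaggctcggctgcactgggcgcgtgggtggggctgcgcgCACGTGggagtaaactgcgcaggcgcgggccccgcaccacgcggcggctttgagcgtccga
Sycp1 (chr3:102936051-102936350, minus strand): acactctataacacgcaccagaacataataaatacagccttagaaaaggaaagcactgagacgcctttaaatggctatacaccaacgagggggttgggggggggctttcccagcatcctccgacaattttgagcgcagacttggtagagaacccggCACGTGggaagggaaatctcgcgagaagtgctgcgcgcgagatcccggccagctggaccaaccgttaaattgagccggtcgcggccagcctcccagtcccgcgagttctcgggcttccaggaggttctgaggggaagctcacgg

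In the second set, of developmental genes, capitals mark each CpG. The annotated first base of Hoxd13 is already coding, so the last 50 bases of its run are coding sequence. Olig2 directs the formation of oligodendrocytes and motor neurons, Hoxd13 patterns the distal limb and the genital tubercle, and Lin28b encodes an RNA-binding protein that blocks the maturation of let-7 microRNAs in immature cells.
Olig2 (chr16:91225207-91225506, plus strand): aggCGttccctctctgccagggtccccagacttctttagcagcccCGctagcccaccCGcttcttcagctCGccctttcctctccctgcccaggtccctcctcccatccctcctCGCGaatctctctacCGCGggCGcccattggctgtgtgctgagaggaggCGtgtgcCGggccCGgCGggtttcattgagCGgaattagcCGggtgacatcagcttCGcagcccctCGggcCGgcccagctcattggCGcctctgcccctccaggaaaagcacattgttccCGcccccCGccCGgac
Hoxd13 (chr2:74668060-74668359, plus strand): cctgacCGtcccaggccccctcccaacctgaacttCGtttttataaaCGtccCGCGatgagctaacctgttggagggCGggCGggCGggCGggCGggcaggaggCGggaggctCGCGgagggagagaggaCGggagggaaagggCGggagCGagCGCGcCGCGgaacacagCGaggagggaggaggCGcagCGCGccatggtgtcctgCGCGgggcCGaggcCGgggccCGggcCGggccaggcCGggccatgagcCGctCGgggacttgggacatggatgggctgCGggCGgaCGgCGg
Lin28b (chr10:45486346-45486645, minus strand): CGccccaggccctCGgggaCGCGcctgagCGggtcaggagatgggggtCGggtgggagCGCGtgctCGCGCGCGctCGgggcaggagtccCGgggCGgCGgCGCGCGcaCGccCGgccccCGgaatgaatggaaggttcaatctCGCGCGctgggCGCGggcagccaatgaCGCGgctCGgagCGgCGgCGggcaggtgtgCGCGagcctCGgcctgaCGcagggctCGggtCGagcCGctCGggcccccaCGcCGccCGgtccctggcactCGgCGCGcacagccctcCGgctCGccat

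These 300 bases held 22 CpGs in Olig2, 37 in Hoxd13 and 49 in Lin28b. The germline runs held 13 in Sycp3, 24 in Hormad1, 20 in Tdrd1 and 21 in Sycp1. The GC box GGGCGG was read on both strands and counted without overlapping matches. It occurred 2 times in Olig2, 5 times in Hoxd13, 2 times in Lin28b and 1 time in Sycp3. The other 3 runs had no match. In Hoxd13 further matches overlap those counted.

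The share of promoters without a peak was lower at higher CpG content up to a ratio of 0.9. Promoters with a ratio under 0.1 lacked a peak in both libraries in 91.7% of cases, and promoters between 0.5 and 0.6, just outside the rule, in 13.6%. Within the CpG-rich range the share was 8.17% from 0.6 to 0.7, 4.25% from 0.7 to 0.8, 2.69% from 0.8 to 0.9, 2.70% from 0.9 to 1.0 and 1.5% above. In replicate 1 alone 546 CpG-rich promoters lacked a peak, and in replicate 2 alone 566 did. A further 232 CpG-rich promoters had a peak in 1 library, 126 of them in replicate 1 (median peak signal 0.538) and 106 in replicate 2 (0.516). At the 9150 CpG-rich promoters with a peak in both libraries, called open here, the medians were 4.85 and 5.14.

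**Figure D1:**
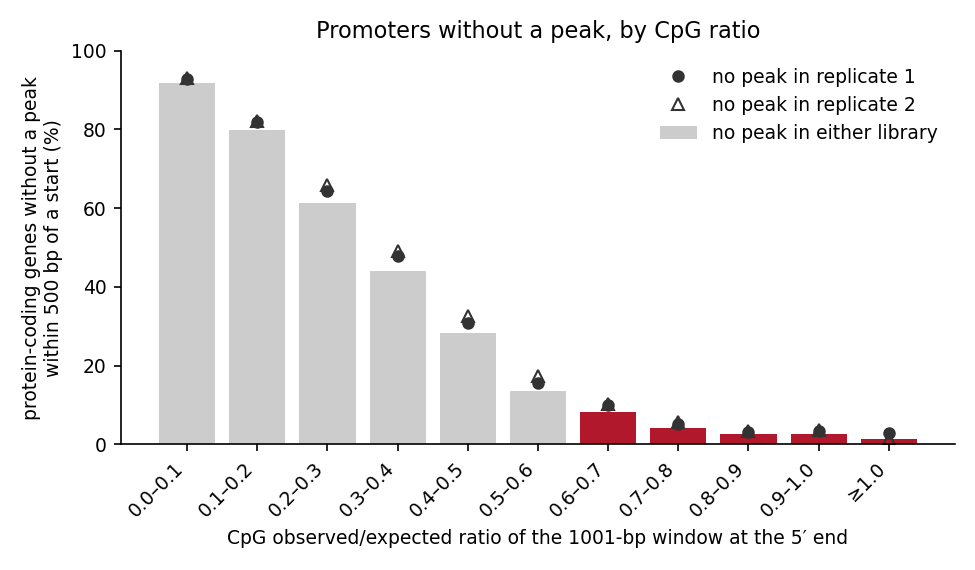
Percentage of autosomal protein-coding genes without a peak within 500 bp of any annotated start (vertical axis) by the CpG ratio of the 5′ end (horizontal axis). Bars give the share without a peak in either library, red where the CpG-rich rule holds, and circles and triangles give each library alone; bars fall from 91.7% at the lowest ratios to 1.5% at the highest.

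Members just inside and just outside the rule lay close together. The 3 named members with the lowest ratios were Neto1 at 0.6004, Cst6 at 0.601 and Rxfp2 at 0.601. Grik1 at 0.599 and P2rx5 at 0.598 also had no peak and fell just under the minimum. By distance, the nearest peaks of the members Foxf1, Adcy6, Igfbpl1, C1ql4 and Clmp lay 506, 512, 518, 524 and 530 bp from a start. Pax1 and Nat8l fell outside the rule through a replicate 1 peak at 496 and 487 bp, with signals of 0.571 and 0.592, and no peak so near in replicate 2. In all, 63 members had the nearest peak of either library up to 1000 bp away, 62 from there to 2000 bp, 102 to 5000 bp, 65 to 10000 bp, 100 to 50000 bp, and 48 farther away.

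Some members could not be read clearly. In 60 of the 440, or 13.6%, fewer than 50% of the 32-base words of the window were unique in the genome, against 0.634% of the CpG-rich promoters open in both libraries. Reads from such copies map to several places, and the labels do not say how they were treated. They include 36 genes with predicted symbols, and among the 24 named ones are Tmem254a, Tmem254b, Tmem254c, Plac9a, Plac9b, Srp54b, Srp54c and 5 of the replication-dependent histone genes named below. The other 380 members had unique sequence. Gene models also differed, since 36 members (8.18%) had an annotated first base that was already coding, against 1.11% of the open promoters. A single annotated start was given for 39.5% of the members, 10.5% of the open genes and 41.1% of the CpG-poor genes without a peak. The rule covers every annotated start, so genes with few starts meet it more easily, and this difference is partly set by it. With the annotated 5′ end alone, 522 CpG-rich promoters lacked a peak. RefSeq held a promoter of the same symbol for 309 members, 283 of them with a start within 500 bp of the GENCODE 5′ end, and a peak lay within 500 bp of a RefSeq start at 4 members, Gdnf, Gm36079, Lmx1b and Tmem178b.

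The median GC content differed little between the members and the open CpG-rich promoters, while the CpG ratio was lower in the members. The median ratio was 0.720 (quartiles 0.649 and 0.804) in the members and 0.788 (0.705 and 0.875) in the open promoters. Their median GC content was 61.4% and 61.1%, and the median number of CpGs in the window 66 and 72. The CpG-poor promoters without a peak had a median GC content of 45.1% and 8 CpGs. The highest ratios among named members with unique sequence were those of Lin28b at 1.08, the zinc finger gene Zfp362 at 1.08, the neural homeobox gene Barhl2 at 1.07, Reln at 1.01, whose product guides migrating neurons, and the midbrain and hindbrain homeobox gene En2 at 1.00. A total of 39 members (8.86%) had a GC content under 50%, against 2.82% of the open promoters.

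Gene lists of lineage-specifying transcription factors held many members. Over the lists of Hox, other homeobox, T-box, forkhead, basic helix-loop-helix (bHLH) and Sox genes, 72 of 188 CpG-rich promoters had no peak, or 38.3%, beside 4.48% of all CpG-rich promoters. Developmental factors with a peak in both libraries, 92 in number, had weaker peaks, with medians of 1.52 (replicate 1) and 1.39 (replicate 2), under the 4.85 and 5.14 of all open CpG-rich promoters. The lists differed, with 0.678 and 0.719 for bHLH, 3.06 and 4.17 for T-box and 3.63 and 3.37 for forkhead genes. Weaker peaks were not particular to these lists. Open germline promoters had 1.77 and 1.68 and granulosa cell markers 1.87 and 2.08, while ribosomal protein genes had 6.92 and 6.68. The lists were chosen with results of these data known, so the shares are descriptions.

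The homeobox genes outside the Hox clusters, which specify cell types and body regions, gave the largest group, with 41 members of 89 CpG-rich promoters (46.1%), 17 open in 1 library and 31 open in both. Without a peak were Barhl2 and En2, Cdx2 (trophectoderm and intestine), Nkx2-1 (thyroid, lung and forebrain), Pax3 (neural crest and muscle), Lbx1, Tlx1, Six3, Otp, Mnx1 and Phox2a. In the Hox clusters 10 of 25 CpG-rich promoters had no peak, namely Hoxa2, Hoxa3, Hoxa6, Hoxa11, Hoxa13, Hoxb8, Hoxb9, Hoxc11, Hoxc12 and Hoxd13. Another 4 had a peak in 1 library, and 11 were open in both. By the shorter peak lists the Hox share was 68.0%, against 40% by the longer ones. The share of homeobox promoters without a peak differed between the libraries, at 49.4% in replicate 1 and 61.8% in replicate 2, while that of the Hox clusters was 48.0% in each.

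Among the T-box genes 4 of 9 CpG-rich promoters were members, Eomes, T, Tbx1 and Tbx21. T, also called Brachyury, specifies mesoderm, and Tbx21 encodes T-bet of type 1 helper T cells. The forkhead list gave 10 of 29, Foxb1, Foxb2, Foxd3, Foxe1, Foxe3, Foxf1, Foxf2, Foxl1, Foxn4 and Foxr1, or 34.5%, against 21.7% at a minimum ratio of 0.75. Foxf1 and Foxf2 act in embryonic mesenchyme. The bHLH list gave 6 of 21, Bhlhe23, Hand2, Neurod1, Neurog2, Olig2 and Ptf1a, of which Neurod1 and Neurog2 drive neuronal differentiation. Sox1, a factor of early neural tissue, was the single member of 15 CpG-rich Sox promoters, and the other 14 were open in both libraries.

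**Figure D2:**
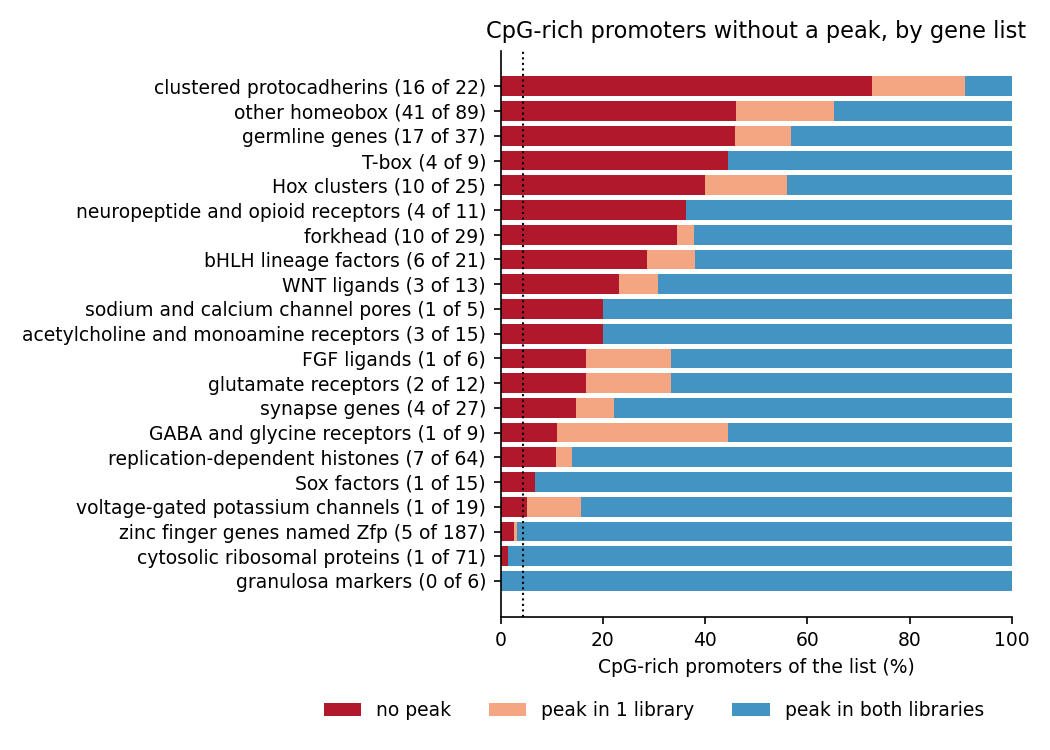
CpG-rich promoters of each gene list with at least 5 such promoters, as the percentage without a peak (red), with a peak in 1 library (orange) and with a peak in both (blue). Numbers beside each list give the promoters without a peak of all its CpG-rich promoters, and the dotted line marks 4.48%, the share over all CpG-rich promoters; the clustered protocadherins reach 72.7% (0% at a minimum ratio of 0.75) and the ribosomal protein genes 1.41%.

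Genes of the germline were the second large group. Of 37 CpG-rich promoters of the germline list 17 had no peak (45.9%), 4 had a peak in 1 library and 16 were open in both. With the ratio taken over 1000 bp on either side the share was 27.3%. The members were Sycp1, Sycp2, Sycp3, Hormad1, Tex12, Mei1 and Rnf212 of meiotic chromosomes, Asz1, Ddx4, Fkbp6, Henmt1, Mael, Mov10l1 and Tdrd1, which are linked to the piRNA pathway or germ granules, and Slc25a31, Trim71 and Zar1. Ddx4 encodes the germ cell helicase also known as Vasa, and Zar1, whose window was not unique, is a maternal factor of the oocyte. Dazl, an RNA-binding protein of germ cells, was open with a signal of 4.77 in replicate 1 and 5.41 in replicate 2 (mean 5.09 ± 0.452, SD, n = 2). These signals are the highest over all annotated starts of the gene. Within 500 bp of the annotated 5′ end of Dazl itself, replicate 1 had a peak and replicate 2 had none. Dmc1, the meiotic recombinase, had signals of 0.495 and 0.641 (mean 0.568 ± 0.103, SD, n = 2), and Stk31 had a signal of 0.320 in replicate 2 and no peak in replicate 1. The part of oocyte number in these values was not tested.

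Promoters of the clustered protocadherins, cell-surface proteins of which single neurons choose different sets, lacked a peak at 16 of 22 CpG-rich members of the list (72.7%). The share was 33.3% among promoters of the list with a GC content of at least 50%, and 0% at a minimum ratio of 0.75. They lie on chromosome 18 and are Pcdha1 to Pcdha9, 2 gene models named Pcdha11, Pcdhga8, Pcdhga10, Pcdhgb4, Pcdhgb5 and Pcdhgc4. In replicate 1 the share was 72.7% and in replicate 2 it was 90.9%. These promoters had a lower GC content than other members, with a median of 45.6%, and short CpG-dense stretches, with a median of 617.5 bp. All 16 had a shared open region (defined below) in the gene or within 10 kb, and since the gene models of a cluster overlap, these can be the same regions.

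Lists of neuronal channels, receptors and synapse genes held fewer members, 16 of 98 CpG-rich promoters (16.3%), and 73 were open in both libraries. Among the members were Cacna1i, Grid1, Grin3b, Gabbr2, Chrna3, Drd5, Htr6, Avpr1a, Galr1, Ghsr, Npbwr1, Slc18a3, Slc32a1, Slitrk3 and Syt6. Slc32a1 loads GABA and glycine into synaptic vesicles and Slc18a3 loads acetylcholine, while Gabbr2 is a subunit of the GABA-B receptor. Open in both libraries were Grin1, a subunit of NMDA receptors, with 1.09 and 0.774, Gad2, an enzyme of GABA synthesis, with 0.334 and 0.539, and the serotonin transporter Slc6a4 with 0.474 and 0.446. Among secreted signals, Wnt3, Wnt3a and Wnt9b were 3 members of 13 CpG-rich WNT promoters (23.1%), and Fgf8 was 1 of 6 FGF promoters (16.7%). By the shorter lists these shares were 53.8% for WNT and 16.7% for FGF promoters.

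Another 3 lists covered cytosolic ribosomal protein genes, replication-dependent histone genes and zinc finger genes named Zfp. Of 71 CpG-rich promoters of cytosolic ribosomal protein genes 1 lacked a peak (1.41%), that of Rpl10l, a testis-expressed retrocopy. Of 64 replication-dependent histone promoters 7 lacked one (10.9%), and 5 of these 7 had near-identical copies, Hist1h2ao, Hist1h2ap, Hist1h2bq, Hist1h2br and Hist2h3c1. Without near-identical copies the histone share was 4.55%. The others were Hist1h2aa and Hist1h2ba, testis variants. Among 187 zinc finger genes named Zfp 5 were members (2.67%), Zfp362, Zfp433, Zfp541, Zfp618 and Zfp781, of which Zfp433 and Zfp781 had near-identical copies. Of 42 genes chosen by name 15 were members, 3 were CpG-rich with a peak in 1 library (Neurog1, Otx2 and Stk31) and 7 were CpG-rich and open. The 17 others had CpG-poor 5′ ends. For Otx2 the replicate 1 peak, with a signal of 0.409, lay at another annotated start. Neither library had a peak within 500 bp of its CpG-rich 5′ end.

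Of the 440 members 138 were in at least 1 of the 24 lists and 302 in none, of which 61 carried predicted symbols.

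The length of the CpG-dense stretch varied among the groups of members. The stretch is the run of 200-bp windows around the 5′ end with a CpG ratio of at least 0.6 and a GC content of at least 50%. Its median was 1039.5 bp in the members and 1096 bp in the CpG-rich promoters open in both libraries. It exceeded 2 kb in 40 members (9.09%), in 5.44% of the open promoters and in 9.48% of the CpG-rich promoters with a peak in 1 library. Stretches over 2 kb were thus not particular to the members. The 72 developmental factor members had a median of 1474.5 bp with a range of 596 to 3265 bp, and 19 of them exceeded 2 kb. The 92 open developmental factors had a median of 1658.5 bp, and 32 of them exceeded 2 kb. The 17 germline members had a median of 823 bp, against 1054.5 bp in the 16 open germline genes. The longest stretches of named members belonged to Zic2 with 3352 bp, Cdx2 with 3265 bp, Olig2 with 3130 bp, Insm1 with 3106 bp and Foxf1 with 2979 bp, all encoding developmental transcription factors.

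**Figure D3:**
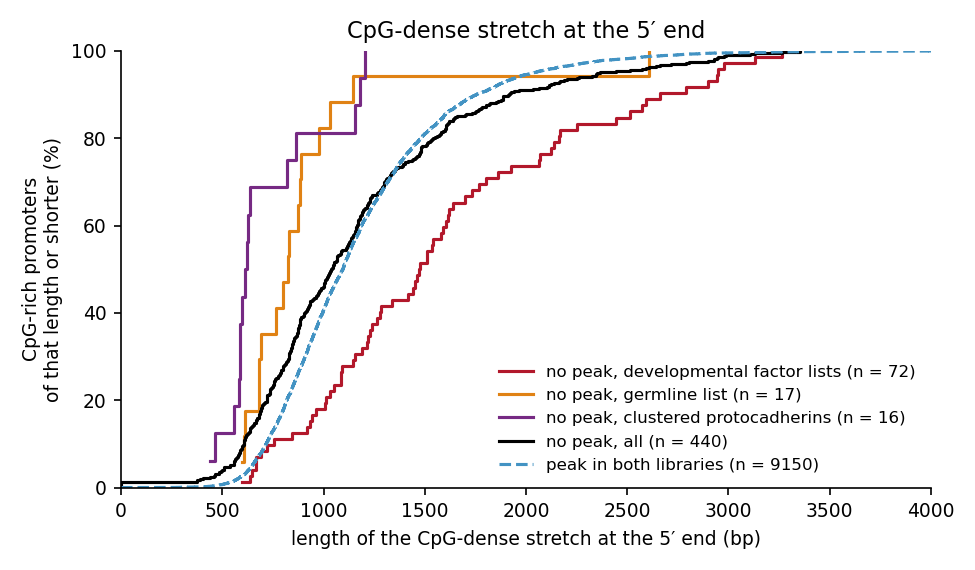
Cumulative percentage of CpG-rich promoters (vertical axis) by the length of the CpG-dense stretch at the 5′ end in bp (horizontal axis). Solid lines are promoters without a peak (all 440 in black, developmental factor lists in red, the germline list in orange, clustered protocadherins in purple) and the dashed blue line is the 9150 promoters open in both libraries; the red line lies farthest right, with a median of 1474.5 bp.

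A total of 13 sequence motifs were searched as exact matches on both strands in the window used for the CpG ratio, and 9 of them were rarer in the members than in the open CpG-rich promoters. Motifs of activators of housekeeping promoters were rarer in the members. The ETS motif CCGGAAG occurred in 14.5% of the members, against 32.7% of the open CpG-rich promoters and 19.5% of all autosomal promoters. The NRF1 motif GCGCATGCG occurred in 1.59% of the members, 5.77% of the open and 3.02% of all promoters, the YY1 motif AAGATGGCG in 1.59%, 6.93% and 3.60%, and the cyclic AMP response element TGACGTCA in 2.27%, 5.48% and 3.33%. The GC box GGGCGG of SP and KLF factors occurred in 86.1% of the members, 92.4% of the open and 61.4% of all promoters, and the NFY motif CCAAT in 60.7%, 64.8% and 70.3%. Among the 380 members with unique sequence the ETS share was 11.3%.

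The TATA box TATAAA occurred in 20.7% of the members, 18.3% of the open and 32.2% of all promoters. In the 300 bases that end 50 bases into the gene, its shares were 10.9%, 5.93% and 12.7%. Both parts of the motif of REST, a repressor of neuronal genes, namely TTCAGCACC and GGACAGCGC, occurred in 2.50% and 3.86% of the members, against 1.68% and 2.79% of the open promoters; in members with unique sequence the shares were 1.58% and 2.63%. The motif GGCGGGAA of E2F6, whose first bases can overlap a GC box, occurred in 9.09% of the members, 12.5% of the open and 7.25% of all promoters. The GFY motif ACTACAATT and the CTCF motif had no exact match in any member, and 1.04% and 0.219% of the open promoters held them. A match is a description of sequence and not a bound site.

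**Figure D4:**
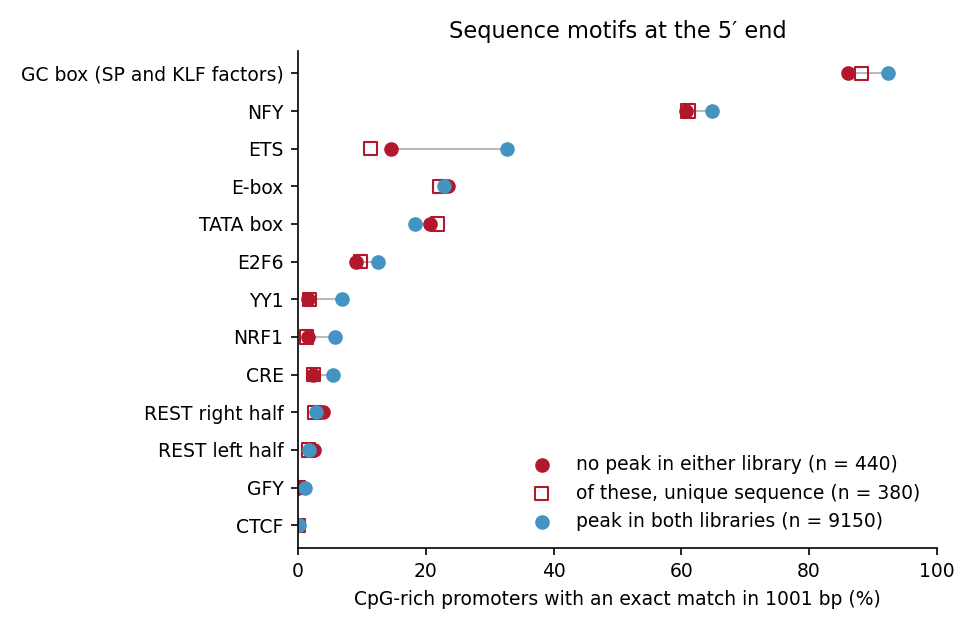
Percentage of CpG-rich promoters with an exact match of each of 13 motifs within 500 bp of the 5′ end (horizontal axis), for the 440 promoters without a peak (red circles), the 380 of them with unique sequence (open squares) and the 9150 open in both libraries (blue circles). The ETS motif is farthest apart, at 14.5% and 32.7%.

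The E-box CACGTG was frequent in the germline members. Over all members it occurred in 23.4%, near the 22.8% of the open CpG-rich promoters and above the 17.3% of all autosomal promoters. In the 17 germline members it occurred in 14, of which 8 held 2 copies, and in the 16 open germline promoters it occurred in 6. In the 300-base window 11 of the 17 germline members held it, as did 2 of the 16 open germline promoters and 11.8% of all members. Of the 22 E-boxes in the germline members 13 lay within 100 bp of the annotated 5′ end, at 9 genes, and the nearest one lay at a median of 63 bp. In the printed runs, those of Sycp3 lie 44 and 23 bp upstream, those of Hormad1 55 and 18 bp upstream, that of Tdrd1 9 bp upstream and that of Sycp1 92 bp upstream. Henmt1, Trim71 and Zar1 had none. By comparison, 9 of 41 homeobox members and 10 of 16 clustered protocadherin members held an E-box within 500 bp of the 5′ end, and 6 and 0 of them in 300 bases. The motif of E2F6 occurred in 5 of the 17 germline members and in 5 of the 16 open germline promoters.

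**Figure D5:**
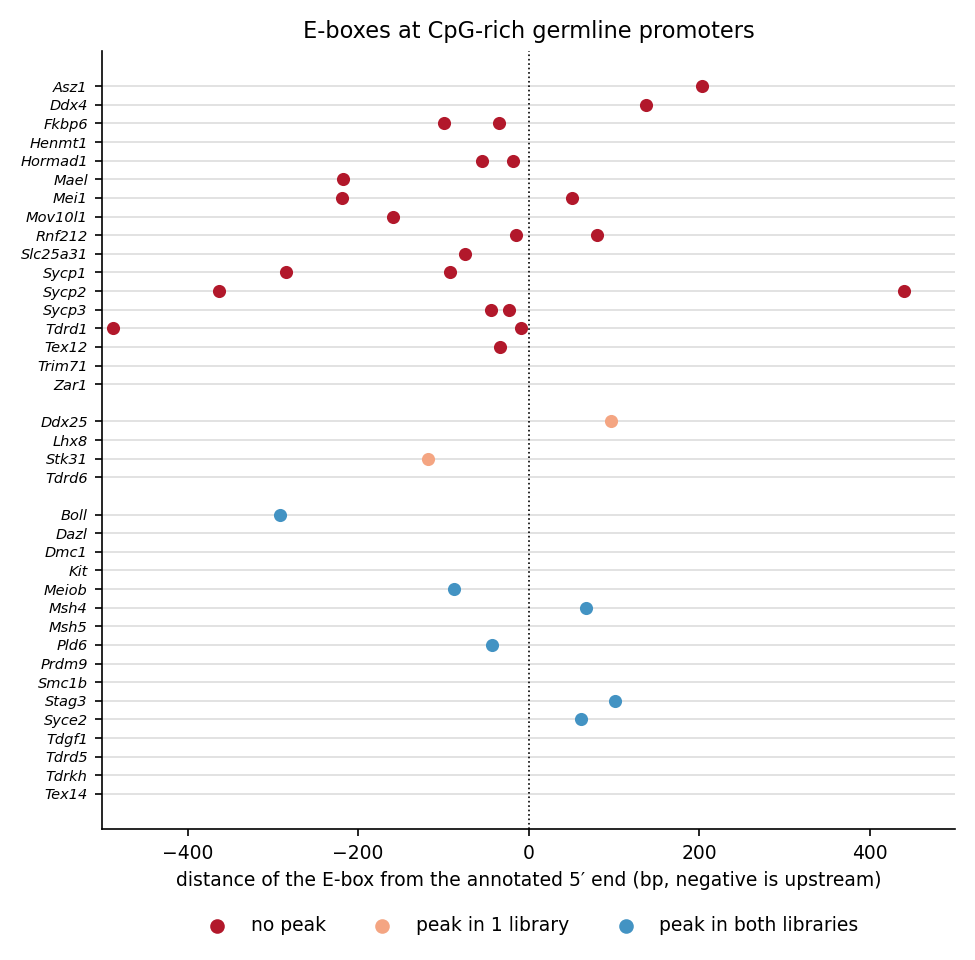
Positions of E-boxes (points) at the 37 CpG-rich promoters of the germline list, as the distance in bp from the annotated 5′ end, negative upstream. Genes without a peak are at the top in red, those with a peak in 1 library in orange and those open in both at the bottom in blue; of the red genes 14 of 17 hold an E-box, and of the blue genes 6 of 16.

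Open regions near the members were those that hold a peak of both libraries and lie over 500 bp from any start of the gene, which the rule did not use. Starts of other genes were not left out, so such a region can be the promoter of a neighbouring gene. At least 1 such shared region lay in the gene or within 10 kb on either side at 305 of the 440 members (69.3%), beside 68.4% of all autosomal genes, 81.4% of the open CpG-rich genes and 40.3% of the CpG-poor genes without a peak. The members with unique sequence reached 74.2%. Gene lengths differed, with medians of 14766 bp in the members, 26873.5 bp in the open CpG-rich genes and 7659 bp in the CpG-poor genes without a peak. For the strongest of these regions, the median over the 305 members was 1.73 in replicate 1 and 1.21 in replicate 2, and over the open CpG-rich genes it was 2.27 and 1.95. The median distance of the 5′ end to the nearest shared region was 11912.5 bp in the members, 9191 bp in the open CpG-rich genes and 28246 bp in the CpG-poor genes without a peak. By the shorter lists the members' median was 20032 bp, and it was 9993 bp without replicate 1 and 6964.5 bp without replicate 2, then to any peak of the remaining library. Counting the gene body alone, 40% of the members held a shared region.

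Several of the promoters without a peak belonged to genes with shared regions in the gene or within 10 kb. Most shared regions were found at Astn2 (15) and Dlgap2 (14), genes of neuronal adhesion and synaptic scaffolds, Rapgef4 (13), a cyclic AMP-responsive exchange factor, Disc1 (12) and Ptprt (11). Astn2 spans 1023809 bp, and its strongest region had signals of 11.7 and 9.61. At Hormad1 the strongest region nearby had 6.59 and 9.10, at Tdrd1 6.74 and 4.30, and at Ddx4 4.52 and 5.14, while Mael, Sycp1, Pax3, T, Hoxa13, Hoxd13, Olig2 and Sox1 had no shared region within 10 kb of the gene. Which gene such a region acts on, and whether it is the promoter of another gene, was not tested. Among the developmental factor members 41 of 72 had a shared region (56.9%), and among the germline members 10 of 17 (58.8%).

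Weak cutting under the level of a peak was listed at few members. Bases with a false discovery rate under 0.05 lay within 500 bp of a start at 26 members in replicate 1, 30 in replicate 2 and 9 in both, or 47 in either (10.7%), against 2.14% of the CpG-poor promoters without a peak. The most were at Gm26566, with 550 and 531 bases, followed by Gm43951 with 201 and 213 and Dlk2 with 174 and 170, and these 3 had a peak between 538 and 596 bp from a start. Foxf1, with its nearest peak at 506 bp, had 50 and 138 bases. A footprint was listed at 1 member in each library, Gm43951, and at 98.5% and 99.2% of the open CpG-rich promoters. These values come from the same data as the rule.

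Some members stood beside each other, and how often other genes do so was not computed. There were 37 runs of 2 or more neighbouring protein-coding genes that were all members, with 89 genes in all, and 23 of these runs held no gene with copies. Some neighbours had 5′ ends closer than 500 bp, such as Prtn3 and Plppr3 at 158 bp, so that largely the same window was read for both. The 9 runs of 3 or more held 33 genes. The run with the most genes comprised Pcdha1 to Pcdha6 with Gm42416, over 37447 bp between the outer 5′ ends, and the nearest peak of either library lay 122211 bp away. In the HoxA cluster Hoxa6, Hoxa3 and Gm28308 formed a run over 4617 bp with the nearest peak at 1288 bp, and Hoxa11, Hoxa13 and the neighbouring Evx1 another over 67688 bp. Mpped1, Efcab6 and Sult4a1 on chromosome 15, over 326287 bp, and Prr23a1, Prr23a2 and Prr23a3 on chromosome 9 formed further runs. Another 5′ end lay within 1 kb of 28 members (6.36%), against 22.8% of the open CpG-rich promoters. The share was 6.03% for CpG-rich promoters with a peak in 1 library and 2.43% for CpG-poor promoters without a peak. A peak at a close neighbouring start can lie within 500 bp of the gene's own start, so the rule partly sets this difference. By chromosome the share of CpG-rich promoters without a peak was lowest on chromosome 16, at 1.85%, and highest on chromosome 18, at 9.43%, which holds the protocadherin clusters.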

How the data were processed

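DNase-seq of whole ovary gave 2 libraries of 1 group. Peak lists, footprints and bases with a false discovery rate were deposited per library on build mm10, per the labels, while the aligner, the peak caller, and how reads of the CAST allele and of repeats were mapped were not stated in the labels used here. The peak strength is a signal that the authors scaled per library, so that depth is unknown and no interval was computed. The false discovery rates, deposited as q-values, are listed under 0.05, and footprints carry a constant deposited p-value label.

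From these files peaks were set against GENCODE M21 starts (minimum overlap 1 bp within 500 bp of a start). Chromosomes of the RefSeq sequence of GRCm38.p6 gave CpG ratios, motifs and 32-base words, counted on the 19 autosomes, X and Y. Python 3.11.15, NumPy 2.4.6, pandas 2.3.3, Numba 0.67.0 and Matplotlib 3.10.9 were used. Peak assignment and word counts were tested on simulated peaks and by plain search.

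No test was run, since peaks chose the members and there is 1 group. The members and all lists were chosen with earlier results of these data known. Genes named are the 2 members of each list with the highest ratio, the 5 highest or nearest by ratio, stretch, peak distance and number of regions, 3 on either side of the ratio minimum, runs of neighbours and 42 fixed genes. Others, such as the remaining list members and genes with listed bases, were named after their values were seen. A few genes that the rule names are not reported here. The values were recomputed with the shorter lists, with each library left out, with other ratios, windows, distances and starts, and without copies.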

Additional observations from a re-analysis of the deposited data

How the results depend on the processing

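No paired analysis was possible because there is 1 group. The count of 440 was 756 with the shorter peak lists, 169 at a minimum ratio of 0.75 and 283 with the ratio taken over 1000 bp on either side, and it ranged from 546 to 566 with 1 library left out. The percentages without a peak in the shorter lists were 68.0 for Hox, 68.5 for other homeobox, 37.9 for forkhead, 86.4 for protocadherin and 56.8 for germline promoters. At a ratio of 0.75 they were 45.5 for Hox, 21.7 for forkhead, 0 for protocadherin and 33.3 for germline promoters, and with the ratio over 1000 bp on either side 31.6 for Hox, 37.5 for forkhead and 27.3 for germline promoters. With a GC content of at least 50% the Hox share was 37.5% and the protocadherin share 33.3%. With peaks sought to 1000 bp the forkhead share was 31%, and to 2000 bp the shares were 32% for Hox, 31% for forkhead and 40.5% for germline promoters. The ratio over 250 bp on either side gave 38.7% for Hox, the 5′ end alone 55.1% for other homeobox, and basic coding starts 44.0% for Hox promoters. Leaving out 1 library gave 48.0% for Hox, 49.4% to 61.8% for other homeobox, 34.5% to 37.9% for forkhead, 72.7% to 90.9% for protocadherin and 48.6% to 54.1% for germline promoters. The median distance to a shared region was 20032 bp in the shorter lists, and 6964.5 to 9993 bp to a peak of 1 library. A shared region lay within the gene at 40% of members, within 50 kb at 87.0%, within 10 kb in the shorter lists at 60.6%, at 74.2% of members with unique sequence, and at 71.2% to 72.3% with 1 library left out. The median stretch was 734 bp at a ratio of 0.75, 965 bp at a GC content of 55%, 1075 bp in unique sequence, and 1051 to 1052.5 bp with 1 library left out. The cause of each shift was not tested. The number of lists above the share of all CpG-rich promoters was 18 of 24 and 15 to 19 under the alternatives, and 9 of 13 motifs were rarer in members, against 9 to 12 in the alternatives. With 2 libraries of unknown depth, a weakly open promoter cannot be told apart from one without cutting. RefSeq starts, copies and library-wise values of region shares, stretches and motifs were added after the data were seen.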

Other observations

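Members outside the lists include other developmental regulators, named here after their values were seen. All 3 CpG-rich Zic genes, zinc finger factors of neural and axial patterning, lacked a peak, with CpG-dense stretches of 2346 bp at Zic1, 3352 bp at Zic2 and 739 bp at Zic4. Dmrt1, a factor that maintains male identity in the gonad, had no promoter peak, with the nearest peak at 31602 bp in replicate 1 and 4064 bp in replicate 2, and neither had Dmrt3 and Dmrta2, so that 3 of 4 CpG-rich Dmrt promoters were members. Tfap2b and Tfap2d, 2 of 4 CpG-rich AP-2 genes, had low GC contents of 39.7% and 42.1%. The RNA-binding proteins of immature cells Igf2bp1 and Igf2bp3, 2 of 3 in the family, stood beside Lin28b among the members. Of the other families looked up, 2 of 3 CpG-rich C1q-like promoters were members, against 0 of 2 of GATA factors and 0 of 20 of sperm and cilium axoneme genes. Over all CpG-rich promoters the share was 4.48%.

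Members with a single exon numbered 54 (12.3%), against 2.93% of the CpG-rich promoters open in both libraries. The share was 8.62% for CpG-rich promoters with a peak in 1 library and 11.6% for CpG-poor promoters without a peak, so it is not particular to the members. Among the 54 members are intronless retrocopies, several of them known for expression in the testis. D1Pas1, a copy of the helicase Ddx3x, had a CpG ratio of 0.746, Papolb, a poly(A) polymerase, 0.782, Rbmxl2, a copy of Rbmx, 0.945, Pabpc6 0.693, Oxct2b 0.611 and Rpl10l 0.720. None of these 6 had a shared region within 10 kb of the gene, and their nearest peaks lay at 976 bp (Rbmxl2, replicate 1) or at 7736 bp and beyond.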
